A study of Petrolisthes cinctipes with 164 samples.

Results

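Crabs sampled 0.5 h after the end of a heat stress were set against control crabs sampled at the same time, the earliest comparison of a recovery series in *Petrolisthes cinctipes*, a porcelain crab that lives under stones between the tide lines. The samples were chosen by their titles and made up 20 of the 164 deposited channels, or 10 of 82 crabs and 5 of 41 pairs. The heat stressed group was 5 crabs from the field that were warmed in the laboratory, beginning at 11 °C and reaching 30 °C over 4 h, and then recovered at 11 °C for 0.5 h. The control group was 5 other crabs that stayed at 11 °C for those 4 h and spent the same 0.5 h in the recovery aquarium both groups shared. Age, sex and the dissected tissue are not named in the labels.

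Each heat stressed crab was hybridised together with the control crab of equal replicate number on 2 cDNA arrays, a and b, with the Cy3 and Cy5 dyes exchanged, and such crabs are called a pair here. The values are log2 intensities of 13818 probes, and all differences are heat stressed minus control within a pair, on the log2 scale, after arrays a and b of a crab were averaged. A probe was called where limma, fitted on the pair differences of all 9 time points, gave a Benjamini-Hochberg adjusted p under 0.05. The spread behind this p is that between pairs of separate crabs, shared over the time points. An SD printed beside a p is that of the 0.5 h pairs alone. Probes carry only their plate position as a name, and no file pairs them with genes, so the results are given by probe. As the table holds no background measure, a level near the bottom of the scale may understate a fold change.

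Heat unfolds proteins, and animal cells answer within minutes to hours by transcribing chaperone genes under heat shock factors while much other transcription is held back. Intertidal crabs meet such temperatures at low tide. The study analysed these data to find the genes affected at 0.5 h, with most interest in falling ones. In a whole-tissue RNA sample, fewer cells of a type and less RNA per cell cannot be told apart.

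At 0.5 h, the crabs of pairs 1 to 4 showed a strong rise of a small set of probes and a weaker decline of another, and the crabs of pair 5 showed the opposite for nearly all of them. With all 5 pairs, limma called 0 of 13818 probes (0%), and 487 (3.52%) had an unadjusted p under 0.05. Without pair 5, limma called 35 probes (0.253%), of which 26 (0.188%) were higher and 9 (0.0651%) lower in heat stressed crabs, and 755 (5.46%) had an unadjusted p under 0.05. In pair 5, 24 of the 26 higher probes were below 0 and all 9 lower probes were above 0. Over the whole table, 44.5% of probes were below 0 and 55.5% above 0 in pair 5. Leaving out 1 more pair lowered the 35 calls to 14 without pair 1, 6 without pair 2, 2 without pair 3 and 0 without pair 4. Without the pairing, limma called 6 probes, all higher, and from single arrays, where dye and treatment are mixed, 9 of 40 calls (array a) and 18 of 55 (array b) were higher.

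The split between the pairs also held over the whole table. Over all probes, the differences of pairs 1 to 4 correlated with each other at r between 0.18 and 0.43, while pair 5 correlated with them at r between -0.39 and -0.19, and at -0.44 with their mean. These are correlations across probes, which are not independent, of pairs with no crab in common. Pair 5 also differed in level, with channel medians of 7.44 to 7.48 against 7.84 to 8.33 in pairs 1 to 4. Its arrays a and b correlated at r = 0.39, while those of pairs 1 to 4 did so at -0.037 to 0.10. Titles, descriptions and dyes of the 20 channels do not contradict each other, and whether the crabs of pair 5 or their labels differ from the others was not tested. That pair 5 runs opposite was known before the fits were chosen, so leaving it out favours the calls made without it. Results below are given with and without pair 5.

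**Figure D1:**
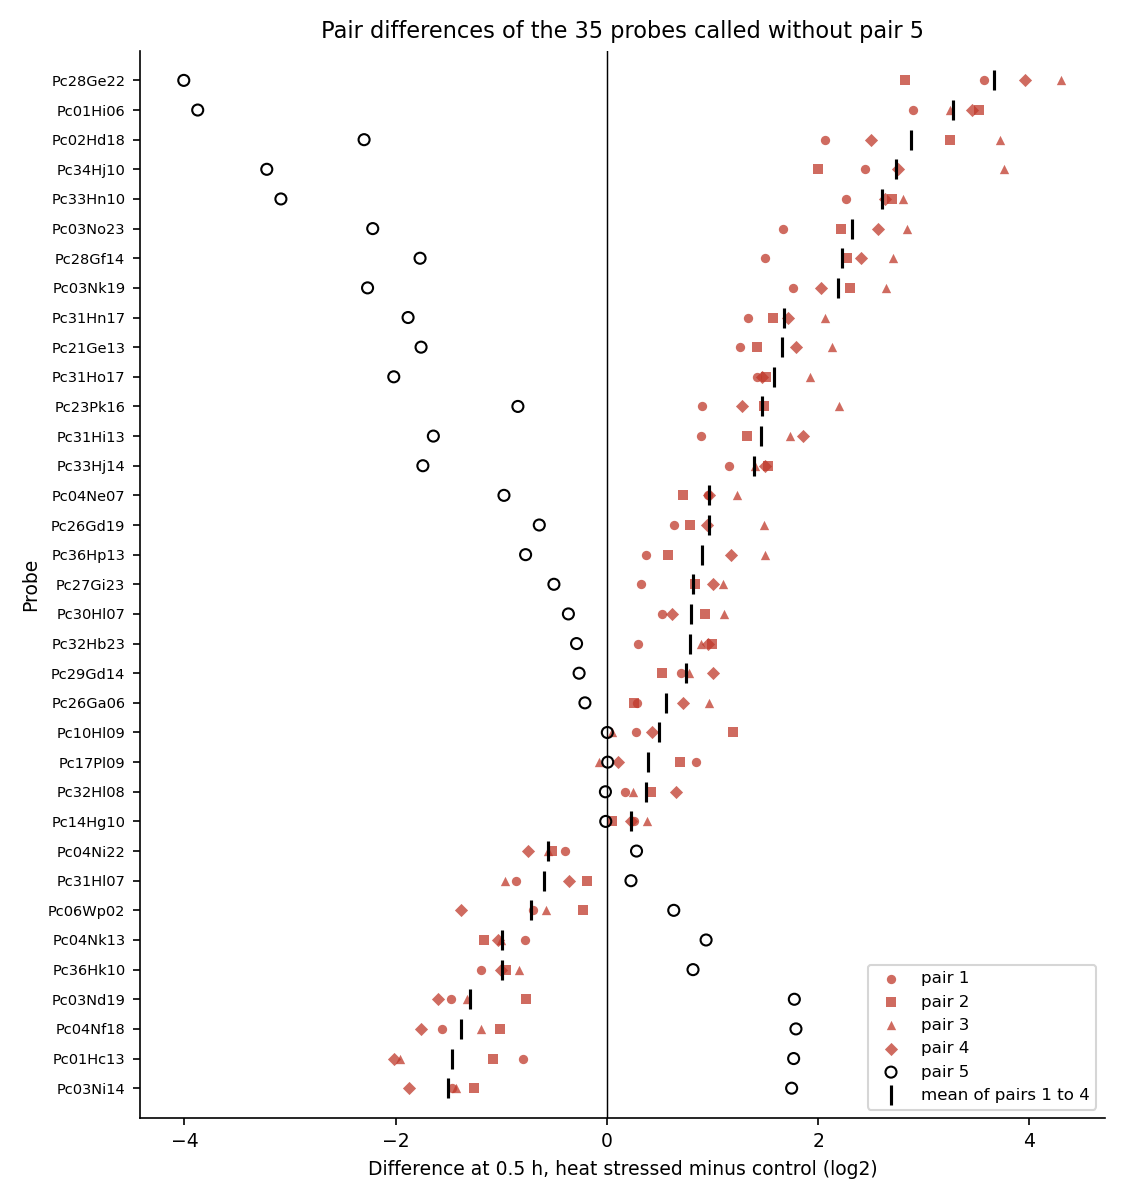
Difference in log2 level, heat stressed minus control, of the 35 probes called without pair 5 (one line per probe, ordered by the mean of pairs 1 to 4). Filled marks are pairs 1 to 4, open circles pair 5 and the bars the mean of pairs 1 to 4; pair 5 lies on the other side of 0 from the mean for 33 of the 35 probes.

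Pc28Ge22 had the largest rise. Its log2 level was 11.60, 10.93, 12.59, 11.98 and 7.28 in heat stressed crabs 1 to 5, against 8.02, 8.10, 8.29, 8.02 and 11.29 in control crabs 1 to 5. The heat stressed crabs of pairs 1 to 4 were all far above their controls and did not overlap them, while in pair 5 the control crab was high and the heat stressed crab low. The mean difference was 3.66 ± 0.63 without pair 5 (SD, n = 4 pairs), a fold of 12.7 (limma, adjusted p = 0.020), and 2.13 ± 3.47 with it (SD, n = 5 pairs, adjusted p = 1.00).

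Pc01Hi06 had the next largest rise. It stood at 10.44, 11.31, 11.04, 11.49 and 7.21 in heat stressed crabs, against 7.54, 7.79, 7.79, 8.04 and 11.08 in control crabs. The 4 differences of pairs 1 to 4 lay between 2.90 and 3.52, and pair 5 gave -3.87. Without pair 5 the mean difference was 3.28 ± 0.28 (SD, n = 4 pairs), a fold of 9.71 (limma, adjusted p = 0.032), and with it 1.85 ± 3.21 (SD, n = 5 pairs, adjusted p = 1.00).

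**Figure D2:**
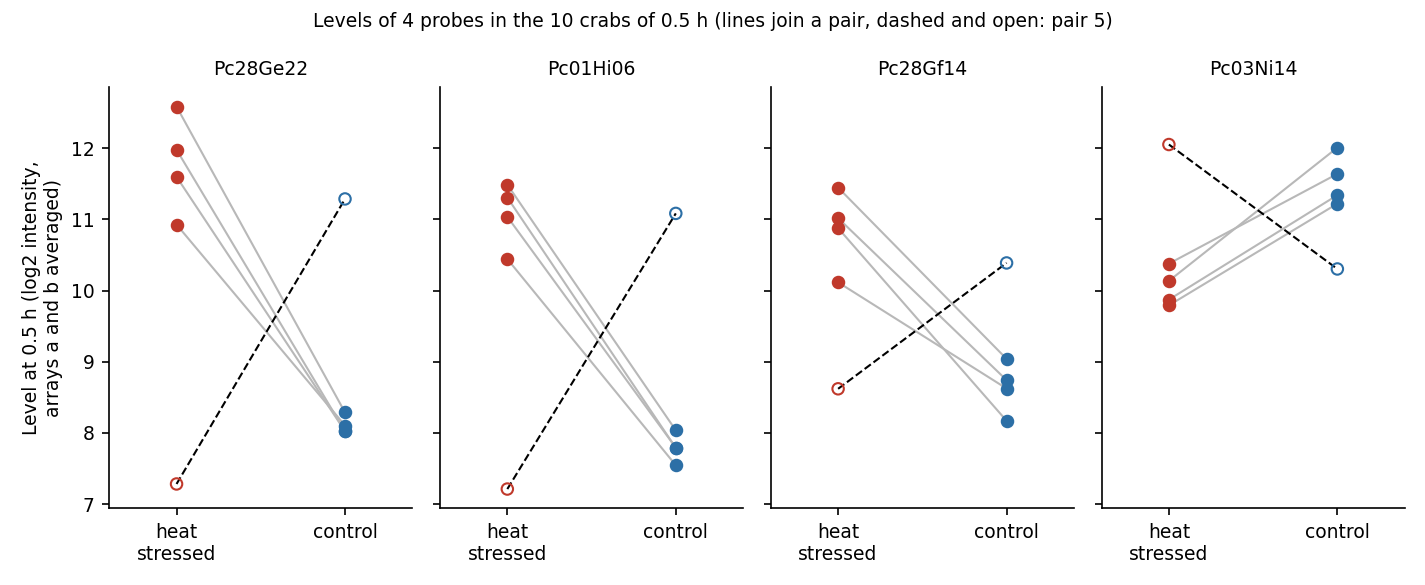
Log2 level of 4 probes in the 5 heat stressed crabs (left in each panel) and the 5 control crabs (right), with lines joining the crabs of a pair. In Pc28Ge22, Pc01Hi06 and Pc28Gf14 the heat stressed crabs of pairs 1 to 4 lie above their controls, in Pc03Ni14 below, and the dashed line of pair 5 crosses them in every panel.

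Pc02Hd18, Pc34Hj10 and Pc33Hn10 followed in size. Pc02Hd18 was at 12.14, 13.23, 12.86, 13.01 and 10.81 in heat stressed crabs, against 10.07, 9.98, 9.15, 10.51 and 13.11 in control crabs. Heat stressed crabs 1 to 4 were all above control crabs 1 to 4, and pair 5 was again reversed. Its mean difference without pair 5 was 2.88 ± 0.74 (SD, n = 4 pairs, limma adjusted p = 0.022). Pc34Hj10 averaged 2.74 ± 0.75 and Pc33Hn10 2.60 ± 0.23 over the same pairs, with -3.22 and -3.09 in pair 5.

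The other 5 of the 10 largest rises were Pc03No23, Pc28Gf14, Pc03Nk19, Pc31Hn17 and Pc21Ge13, with means of 2.32, 2.22, 2.18, 1.67 and 1.65 over pairs 1 to 4. Pc28Gf14 can stand for them, at 10.12, 11.02, 10.88, 11.45 and 8.62 in heat stressed crabs, against 8.62, 8.74, 8.17, 9.04 and 10.39 in control crabs. Heat stressed crabs 1 to 4 did not overlap control crabs 1 to 4, and pair 5 gave -1.77. In each of the 10 probes, arrays a and b of pairs 1 to 4 all gave a difference above 0, the lowest being 0.95 for a single array of Pc21Ge13. With 5 pairs, 0 of the 10 were called (limma, adjusted p = 1.00 for each).

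The remaining 16 of the 26 higher probes had means between 0.23 and 1.58. Among them, 4 probes, Pc10Hl09, Pc17Pl09, Pc32Hl08 and Pc14Hg10, were singled out after their values were seen, because their calls came from means of 0.49, 0.39, 0.37 and 0.23 only. Pc10Hl09 differed by 0.28, 1.20, 0.05 and 0.43 in pairs 1 to 4, so that a single pair carried much of it, and by 0.004 in pair 5. Its 1.20 in pair 2 came from array b, at 2.47, while array a gave -0.079. The SD of its 4 differences was 0.50, while the fit, which shares its spread over the time points, gave a standard error of 0.096 to their mean. Near the threshold, the calls ended with Pc32Hl08, Pc21Ge13 and Pc26Ga06 at an adjusted p of 0.049, and Pc35Hi17 (0.051), Pc27Gb06 (0.052) and Pc28Gf10 (0.056) lay just outside it.

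Size alone gave a similar picture. Without pair 5, 34 probes (0.246%) were above 0 in 4 of 4 pairs with a mean of at least 1, and 7 (0.0507%) were below 0 in 4 of 4 pairs with a mean of at most -1. With 5 pairs, 0 probes (0%) met either condition. Of the 34, the largest without a call were Pc04Ni13, with a mean of 2.45 (limma, adjusted p = 0.15), and Pc04Nb07, with 2.42 (adjusted p = 0.073).

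The 9 lower probes had means between -1.51 and -0.56 over pairs 1 to 4, against up to 3.66 for the rises. Pc03Ni14, the probe with the lowest mean, was at 9.87, 10.38, 9.79, 10.14 and 12.05 in heat stressed crabs, against 11.34, 11.64, 11.22, 12.01 and 10.30 in control crabs. Heat stressed crabs 1 to 4 were all below every control crab of pairs 1 to 4, and pair 5 was reversed. The mean difference was -1.51 ± 0.26 without pair 5 (SD, n = 4 pairs, limma adjusted p = 0.015) and -0.86 ± 1.47 with it (SD, n = 5 pairs, adjusted p = 1.00).

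Pc01Hc13 was at 8.64, 9.75, 8.90, 9.47 and 12.00 in heat stressed crabs, against 9.44, 10.83, 10.86, 11.49 and 10.23 in control crabs. The fall was uneven, with -0.79 and -1.08 in pairs 1 and 2, -1.96 and -2.02 in pairs 3 and 4, and 1.77 in pair 5. Its mean without pair 5 was -1.46 ± 0.62 (SD, n = 4 pairs, limma adjusted p = 0.025). Pc04Nf18 averaged -1.38, Pc03Nd19 -1.29, Pc36Hk10 -0.996 and Pc04Nk13 -0.996 over the same pairs, with 1.79, 1.77, 0.82 and 0.94 in pair 5. The 3 smallest were Pc06Wp02 at -0.72, Pc31Hl07 at -0.59 and Pc04Ni22 at -0.56. In Pc06Wp02 a single array of pairs 1 to 4 lay above 0, at 0.11, and in the other 8 probes all arrays of these pairs lay below 0.

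A picture in the study, whose identifiers were read by eye, names Pc01Hc13, Pc03Nd19, Pc03Ni14 and Pc04Nk13 as ATP synthase subunit a and Pc01Hd14 as cytochrome c oxidase subunit 2. Subunit a belongs to the proton channel of mitochondrial ATP synthase, the enzyme that makes most of a resting cell's ATP, and cytochrome c oxidase is the last enzyme of the respiratory chain; in animals the mitochondrial genome encodes both subunits. The study picked its probes on the same crabs by a negative difference at 0.5 h and then by the shape of their course. Their direction is therefore not independent evidence. It placed all the genes so found in the functional group of ATP synthase. The 5 probes named here are only those whose identifiers were legible. Without pair 5, 4 of the 5 were called lower, against 0.0651% of all probes. Pc01Hd14 was at 10.55, 10.22, 9.77, 11.36 and 10.66 in heat stressed crabs, against 11.13, 10.93, 10.95, 12.01 and 10.07 in control crabs. Its differences were below 0 in pairs 1 to 4 and above 0 in pair 5, with a mean of -0.78 ± 0.27 without pair 5 (SD, n = 4 pairs) that did not pass (limma, adjusted p = 0.11).

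Probes with 1 sign in all 5 pairs moved little. Of all probes, 571 (4.13%) were above 0 and 356 (2.58%) below 0 in 5 of 5 pairs, and 0 of them were called. The 5 highest means were those of Pc22Cd20 (0.53), Pc03Nc05 (0.41), Pc27Gp03 (0.41), Pc25Ck12 (0.40) and Pc34Hj12 (0.40), and the 5 lowest those of Pc03No20 (-0.81), Pc05Wf15 (-0.61), Pc19Pc11 (-0.61), Pc15Pa09 (-0.60) and Pc17Pf08 (-0.59). These were chosen for their sign, which is therefore no result.

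Pc22Cd20 had the smallest SD of them over the 5 pairs. It was at 8.26, 8.46, 9.01, 9.24 and 8.56 in heat stressed crabs, against 7.80, 8.23, 8.27, 8.59 and 7.99 in control crabs. With arrays a and b averaged, each heat stressed crab was above its own control, by 0.24 to 0.74, though the groups overlapped. In pair 5 its array a gave -0.16 and its array b 1.30, and in pairs 1 to 4 its arrays differed by 0.71 on average. Its mean was 0.53 ± 0.19 (SD, n = 5 pairs, limma adjusted p = 0.92), and at 1 h and 2 h it was 0.80 and 0.47. Pc03No20 was at 9.79, 11.09, 10.00, 11.25 and 9.64 in heat stressed crabs, against 11.10, 11.42, 10.29, 11.59 and 11.43 in control crabs. Pairs 1 and 5 gave -1.31 and -1.78 and the others -0.34 to -0.28, so that its mean of -0.81 ± 0.69 (SD, n = 5 pairs) came mostly from 2 pairs (limma, adjusted p = 1.00).

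Probes called at 3 or more later time points were mostly displaced the same way at 0.5 h in pairs 1 to 4. Those called higher at 30 h alone were not, while a part of those called lower at 30 h alone was. A separate limma fit without any 0.5 h pair called 38 probes higher and 8 lower at 3 or more later time points. In pairs 1 to 4 the 38 probes had median differences of 0.85, 0.93, 1.60 and 1.14, and 36 of them were above 0 in all 4 pairs, against 8.26% of all probes. In pair 5 their median was -1.45 and 0 of 38 were above 0. The 8 lower probes had medians of -0.43, -0.65, -0.50 and -0.41 in pairs 1 to 4, and in pair 5 a median of 0.67 with all 8 above 0. The medians of all probes were 0.006 over pairs 1 to 4 and 0.010 over 5 pairs. The fit behind these lists used no 0.5 h value, though the number of time points asked for was set with the values known. It shared 36 pairs with the fit that called probes at 0.5 h, so that the calls are not independent. Without pair 5, 9 of the 38 were called higher and 3 of the 8 lower at 0.5 h, where 0.188% of all probes were called higher and 0.0651% lower, and with it 0. The fit called 113 probes higher and 35 lower at 30 h and at no other later time. At 0.5 h the 113 had a median of -0.062 over pairs 1 to 4 and 0.25 in pair 5. In all of pairs 1 to 4, 10 of the 113 were above 0, against 8.26% of all probes, and 23 were below 0, against 8.33%. The 35 had a median of -0.18 over pairs 1 to 4 and 0.22 in pair 5. Of them, 19 were below 0 in all of pairs 1 to 4, against 8.33% of all probes.

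**Figure D3:**
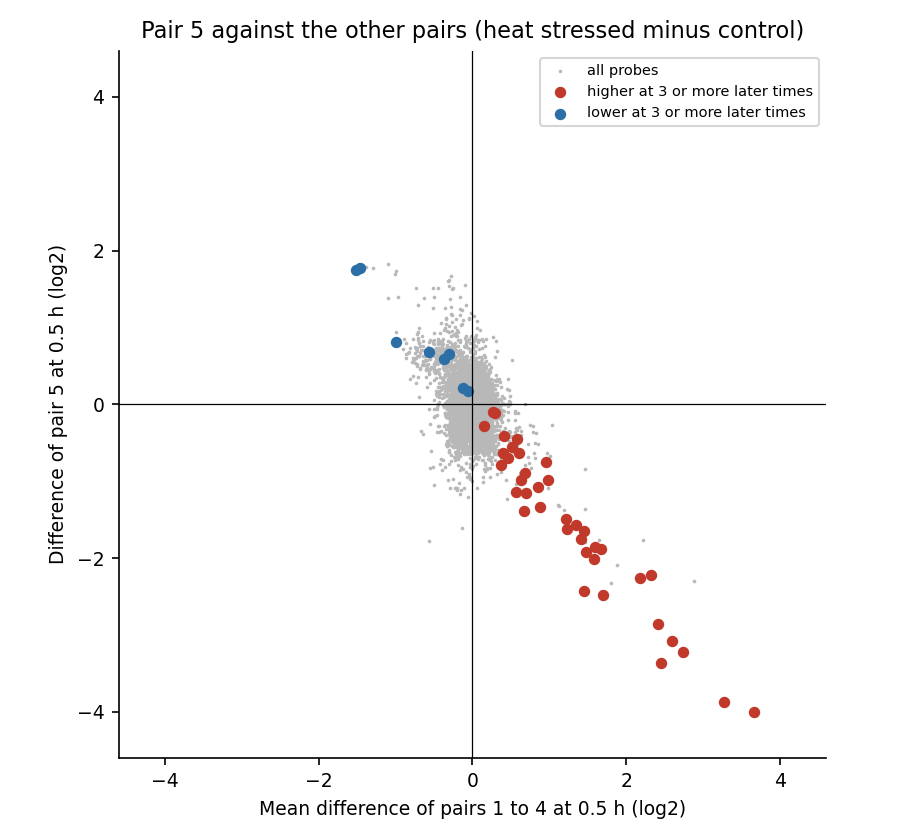
Difference of pair 5 (vertical axis) against the mean difference of pairs 1 to 4 (horizontal axis) at 0.5 h, both heat stressed minus control on the log2 scale, for all 13818 probes. The 38 probes called higher at 3 or more later times lie below 0 in pair 5 and the 8 called lower lie above 0, opposite to their means in pairs 1 to 4.

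Most probes called at 1 h had the same direction at 0.5 h in pairs 1 to 4, and the opposite one in pair 5. The fit without 0.5 h pairs called 89 probes higher (0.644%) and 11 lower (0.0796%) at 1 h. Of the 89, 83 were above 0 in all of pairs 1 to 4 at 0.5 h, against 8.26% of all probes. When pair 5 was left out, 84 of the 89 had an unadjusted p under 0.05 (limma), against 5.46% of all probes. Of the 11, 9 were below 0 in all of pairs 1 to 4, against 8.33% of all probes. In pair 5, 84 of the 89 were below 0, against 44.5% of all probes. All 11 were above 0 there, against 55.5% of all probes. The 89 had a median difference of 0.80 at 0.5 h without pair 5 and 0.53 with it, and 1.22 at 1 h. Of the 26 probes called higher at 0.5 h without pair 5, 22 were called at 1 h and 21 at 2 h, where 0.521% of all probes were called higher and 0.0941% lower. The 4 called at neither time were Pc10Hl09, Pc17Pl09, Pc32Hl08 and Pc14Hg10. Of the 9 lower probes, 5 were called at both times, namely Pc03Ni14, Pc01Hc13, Pc04Nf18, Pc03Nd19 and Pc36Hk10. The fits behind these calls shared 36 pairs for their spread, so that the overlap of calls is partly built in.

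Tested directly, the difference at 0.5 h did not pass against that at 1 h or 2 h for any probe. Limma called 0 probes (0%) for 0.5 h minus 1 h with 5 pairs and 0 without pair 5, with 356 (2.58%) and 350 (2.53%) at an unadjusted p under 0.05. For 0.5 h minus 2 h it also called 0 (0%) in both fits, with 450 (3.26%) and 510 (3.69%) at an unadjusted p under 0.05. The 26 higher probes had a median difference of 1.42 at 0.5 h without pair 5 (0.80 with it), 1.85 at 1 h and 1.51 at 2 h, and 22 of them were larger at 1 h than at 0.5 h. The 9 lower probes had medians of -0.996 (-0.63 with pair 5), -1.08 and -0.93 at these times.

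**Figure D4:**
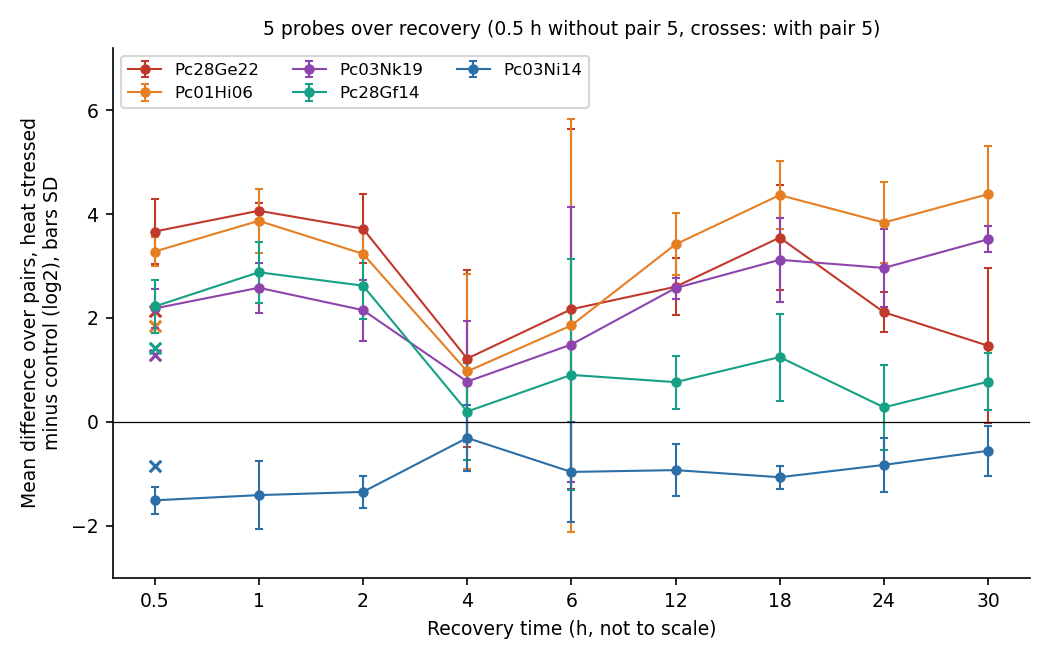
Mean difference, heat stressed minus control on the log2 scale, of 5 probes at the 9 recovery times (3 to 5 pairs each, bars SD, times evenly spaced and not to scale). Points at 0.5 h leave out pair 5 and crosses include it; Pc01Hi06 and Pc03Nk19 are highest at 30 h, Pc28Gf14 and Pc28Ge22 at 1 h, and Pc03Ni14 is lowest at 0.5 h without pair 5 (-1.51), but not with it (-0.86, against -1.41 at 1 h).

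Later in recovery, the early probes differed in the times at which they were called, and their courses were not tested against each other. At 4 h and 6 h, 0 of the 26 higher probes were called, as were 0 of all probes (0%), but their median differences were 0.25 and 0.75 and the means of 22 and 25 of them were above 0. With 3 pairs at 4 h, Pc28Ge22 averaged 1.22 ± 1.71 (SD) and Pc01Hi06 0.97 ± 1.88. With 4 pairs at 6 h, Pc28Ge22 averaged 2.17 ± 3.47 and Pc01Hi06 1.86 ± 3.98. At 6 h both were above 0 in 3 of 4 pairs. Titles and descriptions conflict in some crabs of these 2 times, and the part of that in the spread was not tested. At 12, 18, 24 and 30 h the numbers were 7, 9, 6 and 5, where 0.138%, 0.427%, 0.268% and 1.05% of all probes were called higher. The 5 still called at 30 h were Pc01Hi06, Pc03Nk19, Pc03No23, Pc33Hn10 and Pc31Hi13. Pc01Hi06 averaged 3.28 at 0.5 h without pair 5, 3.87 at 1 h and 4.38 at 30 h, and Pc03Nk19 2.18, 2.58 and 3.52. Others were called at 1 h and 2 h but at no time after that, such as Pc02Hd18, at 2.88, 3.11 and 0.99 at the same 3 times, and Pc28Gf14, at 2.22, 2.88 and 0.77. Pc28Ge22 lay between, with 4.06 at 1 h, 3.55 at 18 h, where it was still called, and 1.47 at 30 h. Of the 9 lower probes, 5 were called at 18 h, where 0.21% of all probes were called lower, and 0 at 24 h (0.311%) and 30 h (0.391%). Their median was -0.53 at 30 h. For none of the 26 did the difference at 0.5 h pass against that at 30 h.

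Another set of probes had a higher difference, heat stressed minus control, at 30 h than at 0.5 h. Limma called 31 probes (0.224%) for 0.5 h minus 30 h with 5 pairs and 57 (0.413%) without pair 5, all of them lower at 0.5 h, and 29 were in both sets. At an unadjusted p under 0.05 there were 704 (5.09%) and 824 (5.96%). The called probes had a median difference at 30 h of 1.04 in either set. Of the 38 probes called higher at 3 or more later times, 4 were among the 31 and 2 among the 57. At 0.5 h without pair 5 the median of the 31 was -0.10, with means between -0.56 and 0.67, and that of the 57 was -0.17, with means between -0.56 and 0.37 and 47 of them below 0. In pair 5 the medians were 0.16 and 0.47, with values between -1.39 and 1.17 in the 31 and between -0.79 and 1.67 in the 57, and with 5 pairs the median mean was -0.0023 in either set. At 1 h the medians were -0.074 and -0.091. Without the pairing, limma called 0 probes in place of the 31. The 31 calls fell to 5, 7, 6 and 12 without 0.5 h pairs 1, 2, 3 and 4, and to 14, 3 and 18 without 30 h pairs 3, 4 and 5.

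Pc01Hn06 and Pc01Hn07, picked after their values were seen, had nearly the same change with and without pair 5. Pc01Hn06 differed by -0.22, 0.09, -0.29, 0.51 and 0.05 in the 5 pairs of 0.5 h and by 1.06, 1.95, 1.93, 1.91 and 1.56 in the 5 pairs of 30 h. The pairs of 0.5 h lay around 0, those of 30 h were all higher, and the ranges did not overlap. The change was -1.65 with 5 pairs (limma, adjusted p = 0.0047) and -1.66 without pair 5 (adjusted p = 0.0040). For Pc01Hn07 it was -1.54 in both fits (adjusted p = 0.0035 in each).

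Pc04Ni22 was the only probe called both at 0.5 h without pair 5 and for 0.5 h minus 30 h. It was at 8.88, 8.26, 8.72, 8.85 and 8.88 in heat stressed crabs of 0.5 h, against 9.28, 8.78, 9.28, 9.60 and 8.60 in control crabs. Its difference was below 0 in pairs 1 to 4 and above 0 in pair 5, while at 30 h it was above 0 in 4 of 5 pairs, with a mean of 0.32. The change was -0.71 with 5 pairs (limma, adjusted p = 0.038) and -0.88 without pair 5 (adjusted p = 0.0035).

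**Figure D5:**
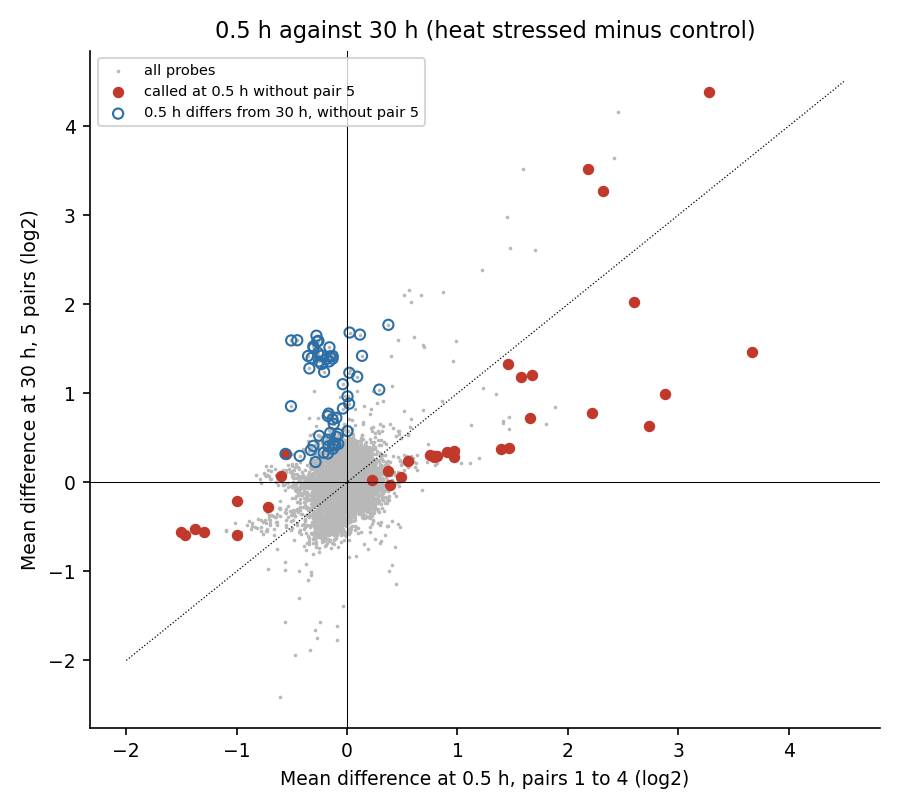
Mean difference at 0.5 h over pairs 1 to 4 (horizontal axis) against the mean difference at 30 h over 5 pairs (vertical axis), heat stressed minus control on the log2 scale; the dotted line marks equal values. The 35 probes called at 0.5 h (red) reach 3.66 and -1.51 on the horizontal axis, while the 57 whose difference changed by 30 h (blue rings) lie between -0.56 and 0.37 on it, where some of the 35 lie too, and above 0 on the vertical axis.

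The highest and the lowest called probe each had probes with a similar course at the other times. Over the 36 pairs from other time points, the differences of Pc28Ge22 were most like those of Pc34Hj10 (Pearson's r = 0.94), Pc28Gf10 (0.91), Pc31Ha05 (0.89), Pc31Hn17 (0.87) and Pc14Hk10 (0.87), where the 99th percentile over all probes was 0.40. Those of Pc03Ni14 were most like Pc01Hc13 (0.97), Pc04Nk04 (0.96), Pc04Nf18 (0.96), Pc02He02 (0.94) and Pc03Nd19 (0.93), against a 99th percentile of 0.44. Pairs of a time point share their hour, the limma fit used these pairs for its spread, and the coefficients are descriptions. Of these 10 probes, 5 were called at 0.5 h without pair 5, and Pc28Gf10, Pc31Ha05, Pc14Hk10, Pc04Nk04 and Pc02He02 were not. All 10 of these probes followed their lead at 0.5 h, with means over pairs 1 to 4 of 1.11 to 2.74 in the first set and -1.46 to -0.99 in the second, and the opposite sign in pair 5.

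The letter inside a probe's name, whose meaning is not given in the sources used here, was counted over the calls as a description, with no test. N probes made up 5.56% of the table and held 3 of the 26 higher and 5 of the 9 lower calls, so that 1.04% of N probes were called. H probes, 36.1% of the table, held 14 higher and 3 lower calls, and G probes, 16.7% of it, held 7 higher and 0 lower. P probes held 2 higher calls and W probes 1 lower call, and 0 of 1152 C probes were called. Several probes can report 1 gene, as the 4 named for ATP synthase subunit a would, so that calls need not be separate genes.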

How the data were processed

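RNA of 82 crabs was measured on 82 arrays with dyes exchanged. The deposited values were log2 intensities, made by the authors for each probe in each channel. The scale was read from the values, as channel maxima lay between 15.1 and 16.6. Background correction, normalization and probe annotation are not given in the sources used here, and 0 values were missing. The number of arrays limits the precision. Arrays a and b of a crab were averaged, and pair differences were fitted with limma 3.58.1 in R 4.3.3 (lmFit, eBayes, 41 pairs, 9 time means, Benjamini-Hochberg over 13818 probes), with and without 0.5 h pair 5. Replicate numbers pair the crabs, since those of 1 number lay on the same arrays, and within the 5 pairs of 0.5 h the departures from group means correlated at 0.75 to 0.87. Treatment and time came from the titles, which 21 descriptions, none of them at 0.5 h, contradict. Named probes were the 10 highest and 10 lowest means among calls without pair 5, the 5 highest and 5 lowest with 1 sign in 5 pairs, the mitochondrial probes of the study, and the 5 most like each lead. The rule that later lists need calls at 3 or more times was set after values were seen. Members, lists and tests were chosen with earlier results of these data known. Alternatives covered pairing, pairs in the fit, normalization, single arrays, eBayes with trend and robust, dim probes and each pair left out. The fit was checked on simulated data. Figures were drawn with matplotlib 3.10.9.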

Additional observations from a re-analysis of the deposited data

Results flagged for a closer look

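Among 5 values, a gap between the most extreme and its neighbour of over 0.71 of the whole range sets a pair apart (Dixon), and chance does so for about 1 in 20 groups. Pair 5 was set apart in all 10 of the largest rises, with gaps of 0.823 of the range for Pc28Ge22, 0.916 for Pc01Hi06, 0.726 for Pc02Hd18, 0.748 for Pc34Hj10, 0.909 for Pc33Hn10, 0.768 for Pc03No23, 0.729 for Pc28Gf14, 0.822 for Pc03Nk19, 0.815 for Pc31Hn17 and 0.776 for Pc21Ge13. Among the 9 lower probes it was set apart in 5, Pc03Ni14 (0.831), Pc04Nf18 (0.790), Pc03Nd19 (0.751), Pc36Hk10 (0.822) and Pc04Nk13 (0.816). These probes were called without pair 5, so that a gap to it is partly a consequence of that choice. In the lists chosen without any 0.5 h value, the median difference of pair 5 was set apart, with 0.755 for the 38 higher probes and 0.813 for the 8 lower ones. Pair 5 was known beforehand to run opposite to the others, so that none of its gaps is new evidence. The rate of 1 in 20 does not hold for a pair known in advance.

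Of the probes with 1 sign in 5 pairs, 2 had a pair set apart. In Pc27Gp03 it was pair 5, with a difference of 0.82 against 0.23 to 0.37 in the others and a gap of 0.766. In Pc25Ck12 it was pair 3, with 1.30 against 0.13 to 0.22 and a gap of 0.921.

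The difference between heat stressed and control crabs changed between 0.5 h and 30 h in 31 probes with 5 pairs (limma, adjusted p under 0.05). For Pc04Ni22 this change, 0.5 h minus 30 h, was -0.71 with 5 pairs and -0.88 without pair 5.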

How the results depend on the processing

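The 0 calls of 5 pairs became 1 with quantile normalization and 3 with array b only, and ranged over 0 to 35 with 1 pair left out, the 35 being those without pair 5. The 35 calls without pair 5 became 97 (68 higher, 29 lower) with quantile normalization, 97 (51 and 46) with only the 0.5 h pairs in the fit, 57 (44 and 13) without the pairs of conflicting labels, 55 (18 and 37) with array b only and 6 (6 and 0) with no replicate block, and ranged over 0 to 14 with 1 more pair left out. With array a only, 40 probes were called, 9 higher and 31 lower, 14 of them shared with the 35. With centring, loess, and eBayes with trend and robust, all 35 stayed called among 39, 41 and 43. Without the dimmest probes 37 were called.

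For 0.5 h minus 1 h and minus 2 h the count ranged over 0 to 1 with 1 pair left out. For 0.5 h minus 30 h the 31 calls became 0 with no replicate block, the pairing being left out, and ranged over 3 to 57 with 1 pair left out. The 0 probes of 1 sign and a mean of at least 1 in 5 pairs became 4 with array b only and ranged over 0 to 41. The 41 without pair 5 became 70 with array a only (52 and 18) and 75 with array b only (31 and 44), and ranged over 41 to 49. Leaving out the block left the 0 calls of 5 pairs, of 0.5 h minus 1 h and of 0.5 h minus 2 h at 0, and was not run for the 57 calls against 30 h or for the calls and lists of later times. Causes were not tested.

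All 35 probes kept their direction under each alternative run, though only 31 of them were tested once the dimmest were left out. For many alternatives this was fixed in advance. No replicate block, other pairs in the fit, other eBayes settings and leaving out dim probes keep the same mean difference at 0.5 h. Leaving out 1 more pair could not reverse the 25 of 26 higher and the 9 lower probes with 1 sign in pairs 1 to 4. Of the 19 named by the rule, all stayed called with centring and loess, 8 with array a only and 4 with array b only, and 7, 4, 0 and 0 without pairs 1, 2, 3 and 4 in turn. Between arrays a and b of a pair, the median probe differed by 0.29, and over pairs 1 to 4 its SD was 0.16, which limits small changes.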
